A study of Mus musculus with 12 samples.

Results

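The 64 genes described here encode the proteins that carry out and steer pre-mRNA splicing. They were chosen by name, by a rule that uses no measured value but was written with earlier results of these data known. It takes every protein-coding gene in the table whose symbol begins with Srsf and a number, Hnrnp, Sf3a or Sf3b and a number, Snrp, or Prpf and a number. That gave 64 of the 27487 genes listed, made up of 10 SR protein genes, 20 hnRNP genes, 9 SF3 genes, 12 Sm and snRNP genes and 13 PRPF genes. Polyadenylated RNA was sequenced from BV2 cells, an immortalised mouse microglial line used as 1 line throughout, in 3 groups of 4 libraries. The CTR group was BV2 cells cultured alone. The Neu group was BV2 cells grown together with primary mouse neutrophils, with no stimulus named in the labels. The Neu+NETS group was BV2 cells grown together with neutrophils treated with phorbol 12-myristate 13-acetate (PMA), a phorbol ester that makes neutrophils release neutrophil extracellular traps, the webs of chromatin and granule protein known as NETs. No group received PMA alone, so PMA carried over and NETs cannot be told apart. The labels give a retinal source beside the cell line, and nothing says whether the libraries came from separate cultures, so p-values measure only the spread between these libraries.

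Introns are removed by the spliceosome, which assembles on each intron from small nuclear ribonucleoproteins (snRNPs). U1 marks the 5′ splice site, U2 with its SF3 proteins holds the branch site, and the U4, U5 and U6 particle brings the catalytic core; a ring of Sm proteins sits on the RNA of most of these particles. SR proteins bind exons and promote their inclusion, whereas hnRNP proteins coat nascent RNA and often repress exons, so the balance between both families sets many splice choices. Macrophages and microglia change the splicing of many transcripts when activated.

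In the Neu co-culture, with neutrophils for which no stimulus is named, most splicing factor genes fell. Of the 63 members that could be tested, 45 were lower in Neu than in CTR and 4 were higher, with a median log2 fold change of -0.29. Among all 16387 genes tested, 27.9% were called lower and 26.1% higher, with a median of 0.02. Of these, 12056 list a coding transcript, as every member does, and are called coding genes here. Among coding genes 35.1% were lower and 30.2% higher, with a median of -0.01. A call here means an adjusted p under 0.05 in edgeR's quasi-likelihood test, adjusted by Benjamini-Hochberg over all genes tested in that comparison. Summed over the members, FPKM (the authors' fragment count scaled to gene length and library size) was 2920, 3031, 2886 and 2914 in the CTR libraries. The same sum was 2250, 2204, 2222 and 2238 in the Neu libraries, or 75.8% of the CTR mean, and no Neu library reached the lowest CTR library. In 44 of the 45 genes called lower the FPKM ranges of the groups did not overlap, as in 4 of the 14 members not called. The share of all genes without overlap was not computed.

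In the co-culture with PMA-treated neutrophils the same sum was 3254, 3213, 3245 and 3165, above every CTR library and 109.6% of the CTR mean. Against CTR, 22 members (34.9%) were called higher, beside 21.6% of all genes and 27.0% of coding genes. Another 12 (19.05%) were called lower, beside 23.7% and 29.3%. The member median was 0.05 and that of all genes 0.00. The split between higher and lower depended on the scaling. With library totals in place of TMM factors it was 30 higher and 6 lower, and the median of all genes was 0.056. With limma on log2(FPKM + 1) it was 30 and 7, and that median was 0.052. The part of this general shift in the summed FPKM was not tested. Directly against Neu, 52 members (82.5%) were higher in Neu+NETS and 5 (7.94%) were lower, beside 29.4% and 33.1% of all genes. Among coding genes these shares were 35.9% and 38.1%. The member median was 0.34, against -0.05 for all genes. The 3 comparisons share their groups, so each gene's values are given side by side and no overlap between calls is counted.

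**Figure D1:**
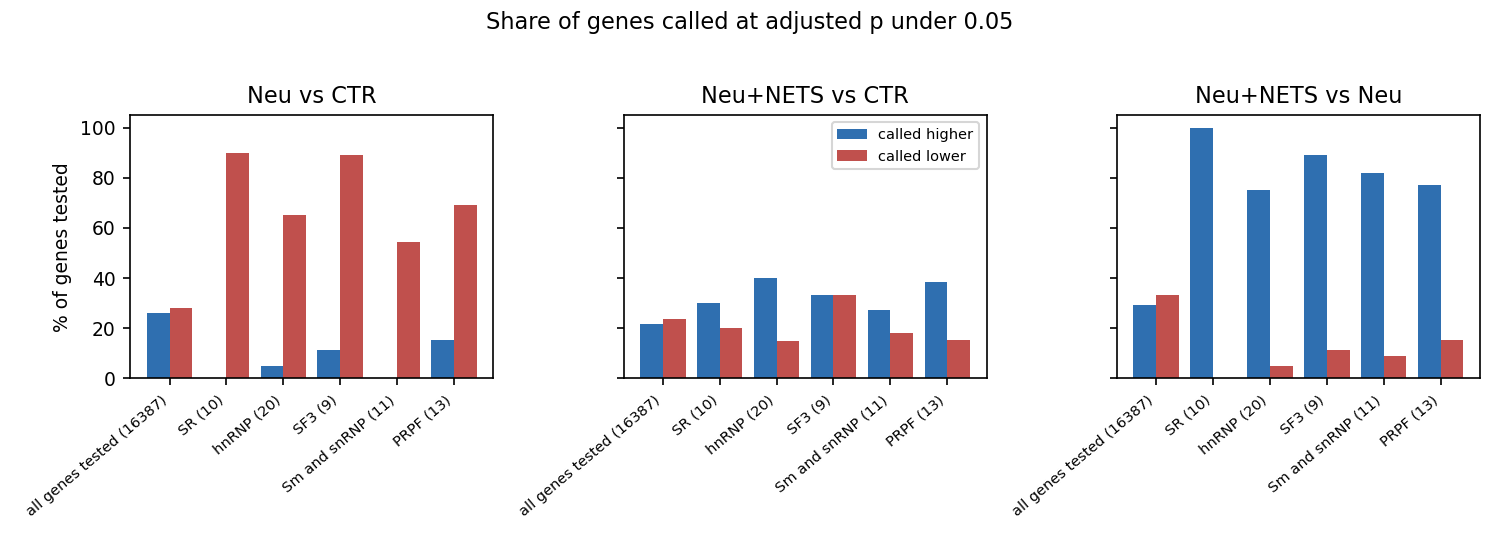
Bars show the percentage of tested genes called higher (blue) or lower (red) at an adjusted p under 0.05, for all genes and for each class, in each comparison; the number tested is in brackets. In Neu against CTR the red bars of all 5 classes stand above the 27.9% of all genes, and in Neu+NETS against Neu the blue bars of all 5 classes stand above 29.4%.

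Cell markers moved with the groups as well. The 8 mature neutrophil markers that could be read summed to 6.08 to 7.62 FPKM in CTR, 14.9 to 15.6 in Neu and 0.997 to 1.48 in Neu+NETS; of the 7 tested, 3 were higher and 0 lower in Neu against CTR, and 0 were higher and 5 lower in Neu+NETS against CTR. S100a8, among the most abundant neutrophil transcripts, stayed at or under 0.57 FPKM in every library. The decoy receptor gene Il1r2 made up most of the Neu sum, at 8.03 ± 0.302 FPKM. Csf3r made up most of the CTR sum, at 5.15 ± 0.230 FPKM in BV2 cells cultured alone. It was at 4.155 ± 0.0721 FPKM in Neu and 0.691 ± 0.165 FPKM in Neu+NETS. Of 14 microglia and macrophage markers read, all 14 were lower in Neu+NETS than in CTR; their sum was 655 to 688 FPKM in CTR, 693 to 719 in Neu and 327 to 332 in Neu+NETS. Precursor markers summed to at most 0.624 FPKM, lymphocyte markers to at most 0.0587 and erythroid markers to at most 1.29 in any library. The 7 retinal markers read summed to 22.9 to 28.6 FPKM, of which Glul, a gene that macrophages also express, made up 18.85 to 25.1, and the cone gene Opn1sw stayed at or under 0.0258. The part of these marker differences in the splicing factor results was not tested. In such bulk RNA, fewer cells of a type and less RNA per cell cannot be told apart. Deposited totals were 53512190 to 68316549 count units per library, and the tested member of lowest count, Snrpg, held at least 688 units in every library.

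The SR protein genes fell furthest. In Neu, 9 of 10 were called lower and 0 higher, with a class median of -0.74, and their summed FPKM went from 504.4 ± 3.63 in CTR to 316 ± 3.9 in Neu (SD, n = 4), which is 62.7% of CTR. In Neu+NETS the sum was 528 ± 2.8, and 3 genes (30%) were called higher and 2 (20%) lower than in CTR. Beside these and the other class counts of this comparison stand 21.6% higher and 23.7% lower among all genes. Among coding genes the shares are 27.0% and 29.3%. Against Neu, all 10 SR genes were higher in Neu+NETS, with a median of 0.66.

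Srsf2 encodes SC35, a nuclear speckle protein that binds exonic enhancers, and was the most abundant of the class. Its FPKM was 121, 121, 123 and 124 in CTR, 61.7, 61.03, 60.98 and 65.7 in Neu, and 123, 119.8, 119 and 119 in Neu+NETS. The Neu values lay far under both other groups, which overlapped. It was 1.89-fold lower in Neu than in CTR (log2 fold change -0.91, SE 0.026, adjusted p = 2.2e-14). Against CTR it was also called lower in Neu+NETS (log2 fold change -0.07, SE 0.025, adjusted p = 0.0281), a change of 1.05-fold with overlapping ranges that 13 of the 22 alternatives did not keep. The value was -0.02 with library totals and in limma, -0.05 with median-of-ratios factors or DESeq2, -0.06 with no filter, and -0.06 to -0.07 without any 1 of CTR 2, 3 and 4 and Neu+NETS 2, 3 and 4. The gene lies on chromosome 11 at chr11:116740727-116743920 on the minus strand of GRCm39.

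Srsf1, the founding SR protein (SF2/ASF), read 71.3, 72.3, 71.3 and 70.5 in CTR, 40.97, 39.3, 38.8 and 40.1 in Neu, and 70.1, 68.2, 70 and 70.8 in Neu+NETS. Its Neu libraries again sat far under both other groups (log2 fold change -0.79, SE 0.025, adjusted p = 1.1e-13 for Neu against CTR). Srsf3, the smallest SR protein and an adaptor for mRNA export, read 39.2, 39.3, 37.6 and 38.7 in CTR, 20.6, 20.96, 21.1 and 21.01 in Neu, and 38.7, 39.4, 40 and 39.97 in Neu+NETS. Neu again stood alone, 1.78-fold lower than CTR (log2 fold change -0.83, SE 0.025, adjusted p = 6.9e-14), and the difference between Neu+NETS and CTR (log2 fold change -0.02, SE 0.025, adjusted p = 0.581) was not called and turned to the positive side under other scalings. Srsf4, which encodes the large SR protein SRp75, had the steepest fall of all members. Its FPKM was 13.9, 13.5, 14.7 and 15.8 in CTR, 6.43, 6.13, 5.77 and 6.31 in Neu, and 14.9, 14.5, 13.4 and 14.5 in Neu+NETS, so that Neu was 2.26-fold lower than CTR (log2 fold change -1.17, SE 0.054, adjusted p = 1.0e-11). Srsf7, another export adaptor, read 46.2, 45.1, 44.97 and 43.6 in CTR, 24.1, 23.8, 23.4 and 23.4 in Neu, and 47.9, 51.7, 51.4 and 50.3 in Neu+NETS. It was 1.83-fold lower in Neu than in CTR (log2 fold change -0.87, SE 0.031, adjusted p = 4.8e-13) and slightly higher in Neu+NETS than in CTR (log2 fold change 0.11, SE 0.031, adjusted p = 0.00633).

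The remaining members fell less. Srsf6 went from 66.3 ± 2.6 to 39.5 ± 1.48 FPKM between CTR and Neu (log2 fold change -0.69, SE 0.033, adjusted p = 1.4e-11). Srsf10, a splicing repressor once dephosphorylated in heat shock, went from 23.0 ± 1.17 to 16.5 ± 0.363 (log2 fold change -0.42, SE 0.035, adjusted p = 1.6e-08). Srsf9 and Srsf11 had log2 fold changes of -0.28 and -0.23. The exception was Srsf5, an SR protein that shuttles between nucleus and cytoplasm. It read 68.4, 67.1, 66.9 and 67.97 in CTR, 64.5, 65.9, 60.6 and 60.3 in Neu, and 87.3, 84.1, 86.8 and 86.1 in Neu+NETS. The Neu libraries lay just under CTR and were not called different (log2 fold change -0.05, SE 0.032, adjusted p = 0.218), while Neu+NETS lay above all of them (log2 fold change 0.30, SE 0.032, adjusted p = 6.9e-07). On the FPKM scale limma did call Srsf5 lower in Neu.

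**Figure D2:**
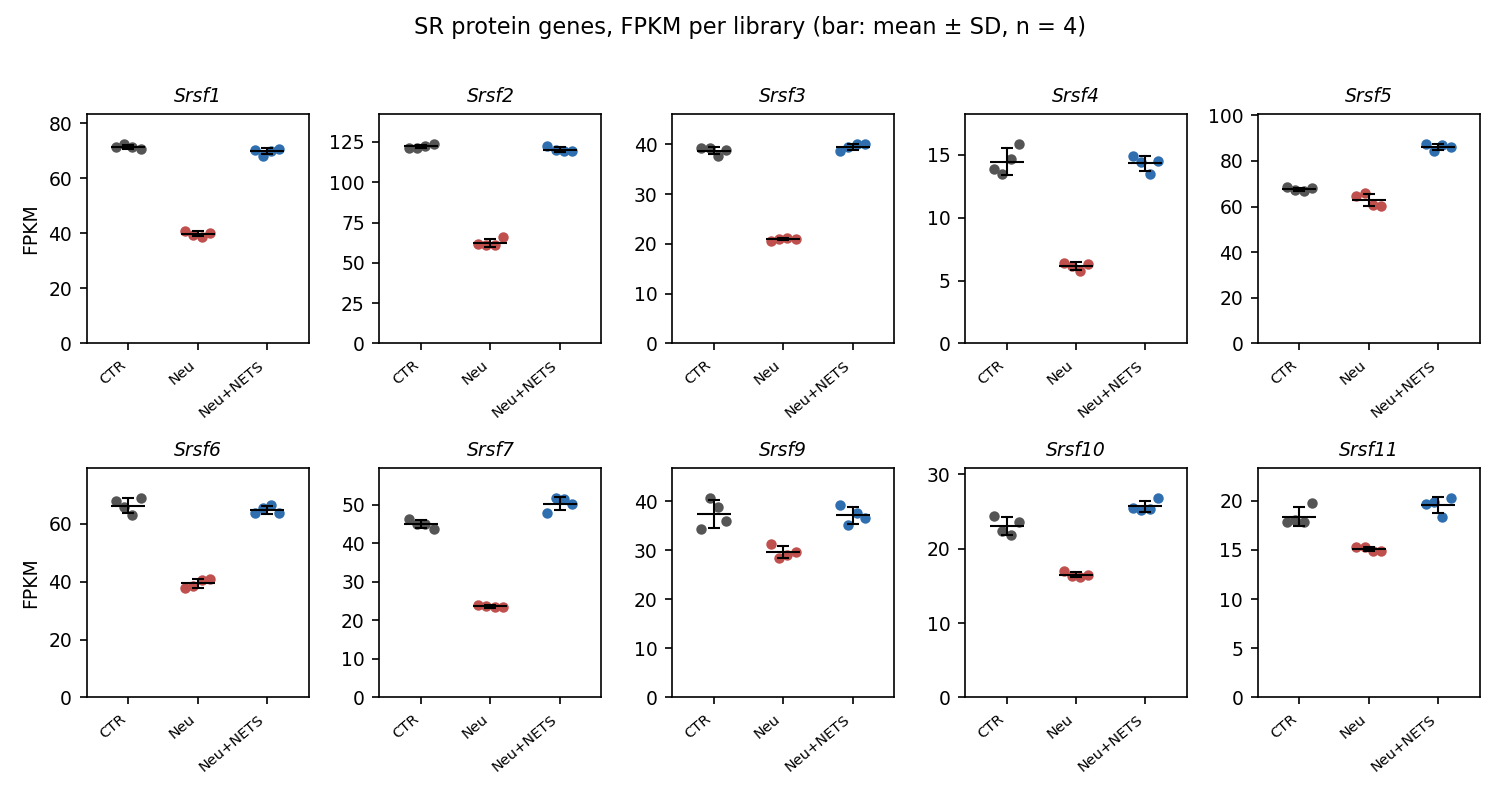
FPKM of the 10 SR protein genes in each library (points), with the mean and SD of each group of 4 (black bars); every y axis starts at 0. Neu lies under both other groups for all genes shown, and relative to CTR the margin is smallest for Srsf5, at 62.8 FPKM in Neu against 67.6 in CTR.

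SR protein genes are known in mammals for exons that send the transcript to nonsense-mediated decay (NMD), through which SR proteins limit their own amount. In the annotation that came with the table, 9 of the 10 SR genes list an NMD transcript, as do 31 of the 64 members, or 48.4%, against 24.9% of the 12056 tested genes that list a coding transcript. In Neu, 22 of 31 members with such a transcript were called lower, with a median of -0.28, and 23 of 32 tested without one, with a median of -0.32. The table gives 1 value per gene, so the share of the NMD form was not measured.

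Phosphorylation sets where SR proteins sit and what they bind, and part of their kinase genes moved the other way. All 4 CLK kinase genes were higher in Neu than in CTR, among 9 genes listed for SR phosphorylation and transport. Clk1 went from 9.96 ± 0.463 to 14.1 ± 0.256 FPKM (log2 fold change 0.55, SE 0.037, adjusted p = 1.0e-09) and Clk3 from 3.70 ± 0.133 to 5.70 ± 0.368 (log2 fold change 0.68, SE 0.050, adjusted p = 4.1e-09). In Neu+NETS Clk1 was at 9.95 ± 0.205, not called different from CTR (log2 fold change -0.05, SE 0.037, adjusted p = 0.293), and Clk3 at 5.02 ± 0.0403, above CTR (log2 fold change 0.39, SE 0.050, adjusted p = 6.4e-06). Clk2 and Clk4 are named because their values were seen, with log2 fold changes of 0.18 and 0.47 in Neu. The 3 genes of this list called lower in Neu, also named after their values were seen, were the cytoplasmic SR kinase Srpk1 at -0.38, the SR import receptor Tnpo3 at -0.13 and the SR-binding speckle protein Pnn at -0.53. Of the 9, 44.4% were thus higher and 33.3% lower in Neu, beside 26.1% and 27.9% of all genes. Among coding genes the shares were 30.2% and 35.1%, so the share lower was near that of coding genes. The median of the 9 was 0.08.

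The hnRNP genes were more mixed. In Neu 13 of 20 were called lower and 1 higher, with a median of -0.22, and the summed FPKM went from 1478 ± 49.5 in CTR to 1172 ± 15.3, or 79.3%. In Neu+NETS the sum was 1669 ± 34.9, or 113% of CTR, with 8 genes (40%) called higher and 3 (15%) lower. Directly between the co-cultures, 15 were higher in Neu+NETS and 1 lower.

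Hnrnpab, whose protein binds transcripts for transport and also DNA, had the highest FPKM of all members, 348, 361, 344 and 338 in CTR, 198, 189, 195 and 196 in Neu, and 388, 369, 372 and 369 in Neu+NETS. It lost the most of any hnRNP gene in Neu, at 1.72-fold lower than CTR (log2 fold change -0.78, SE 0.029, adjusted p = 5.6e-13). Hnrnpa1 encodes the best known repressor of exons. It read 185, 215, 178 and 179 in CTR, 206, 198, 202 and 186 in Neu, and 274, 269, 273 and 254 in Neu+NETS. CTR and Neu overlapped and were not called different (log2 fold change 0.12, SE 0.055, adjusted p = 0.0826). All Neu+NETS libraries were above them (log2 fold change 0.45, SE 0.055, adjusted p = 3.6e-06 against CTR). That was the largest rise of any member in Neu+NETS against CTR. Without CTR 2, its highest CTR library, or without Neu 4, Hnrnpa1 was called higher in Neu, at 0.19 and 0.16, as it was with a replicate block, at 0.12, and with counts divided by 4, at 0.14. Hnrnpa2b1, its close relative, read 139.8, 142, 135 and 138 in CTR, 119.8, 117, 115 and 112 in Neu, and 171, 169, 173 and 164 in Neu+NETS. It was lower in Neu (log2 fold change -0.20, SE 0.030, adjusted p = 2.0e-05) and higher in Neu+NETS (log2 fold change 0.24, SE 0.030, adjusted p = 4.9e-06), both against CTR. Hnrnpk, a binder of C-rich RNA, read 95.96, 96.2, 94.4 and 94.6 in CTR, 102, 101, 100 and 93.2 in Neu, and 114, 116, 116 and 114 in Neu+NETS. Its small rise in Neu (log2 fold change 0.11, SE 0.030, adjusted p = 0.00497) came with overlapping ranges and was not called by limma on FPKM, at 0.05. That in Neu+NETS had no overlap (log2 fold change 0.22, SE 0.030, adjusted p = 1.0e-05). Hnrnpc, which binds U tracts and guards against cryptic exons, was at 63.4 ± 1.77 FPKM, 46.4 ± 1.23 FPKM and 62.1 ± 1.88 FPKM in CTR, Neu and Neu+NETS, lower in Neu than in CTR (log2 fold change -0.39, SE 0.034, adjusted p = 3.2e-08). Its difference in Neu+NETS was not called (log2 fold change -0.08, SE 0.034, adjusted p = 0.0682), but was without CTR 4, at -0.10, without Neu 4, at -0.08, or with a replicate block, at -0.08.

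A few hnRNP genes were low in both co-cultures. Hnrnpd encodes AUF1, a protein that binds AU-rich elements and directs the decay of many cytokine mRNAs. Its FPKM was 13.4, 15.5, 13.3 and 13.6 in CTR, 9.59, 9.01, 9.19 and 8.50 in Neu, and 9.31, 8.63, 9.54 and 8.57 in Neu+NETS. Every co-culture library lay under every CTR library, 1.48-fold lower in Neu (log2 fold change -0.57, SE 0.058, adjusted p = 2.2e-07) and 1.60-fold lower in Neu+NETS (log2 fold change -0.68, SE 0.058, adjusted p = 4.6e-08). Against each other the co-cultures overlapped (log2 fold change -0.11, SE 0.058, adjusted p = 0.101), although without Neu 4 Neu+NETS was called lower, at -0.15. Hnrnpdl, a paralog of Hnrnpd, was at 22.1 ± 1.19 FPKM, 16.4 ± 0.723 FPKM and 19.99 ± 0.496 FPKM in the same order, called lower in both (log2 fold change -0.37, SE 0.041, adjusted p = 6.5e-07 and log2 fold change -0.19, SE 0.041, adjusted p = 9.3e-04). Hnrnpul1, which takes part in the response to DNA breaks, read 23.9, 24.4, 24.8 and 23.3 in CTR, 21.4, 20.3, 21.2 and 20.97 in Neu, and 19.7, 20.1, 19.1 and 18.2 in Neu+NETS. It was lowest in Neu+NETS (log2 fold change -0.37, SE 0.035, adjusted p = 1.9e-07) and between the others in Neu (log2 fold change -0.14, SE 0.035, adjusted p = 0.00221). Of the other hnRNP genes, Hnrnpf, Hnrnph1, Hnrnpm, Hnrnpl, Hnrnpr and Hnrnpu were called lower in Neu, with log2 fold changes from -0.22 to -0.44. Hnrnpa0 (-0.10) was called lower too, a call that 12 of the 22 alternatives did not keep.

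**Figure D3:**
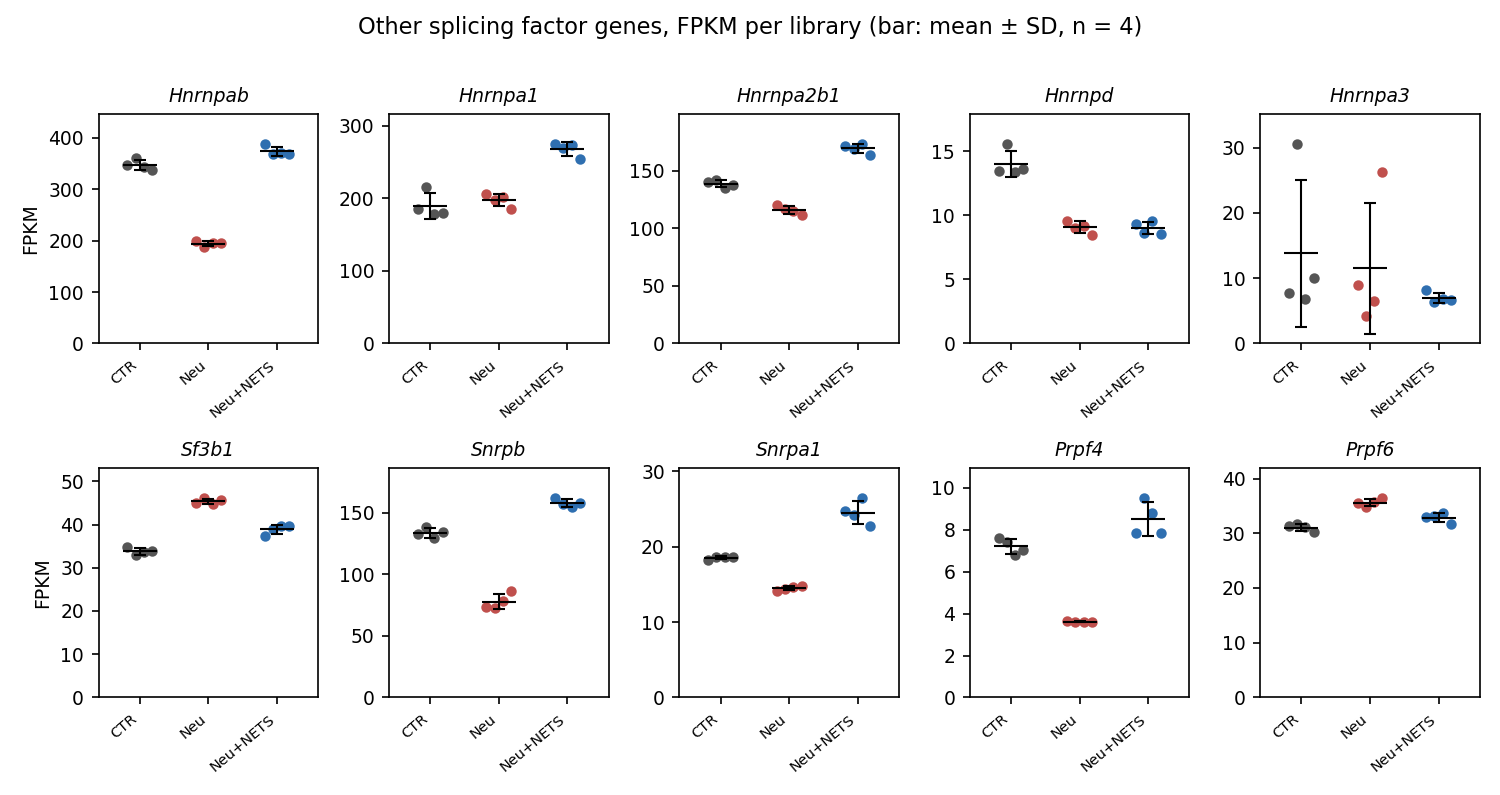
FPKM per library (points) with mean and SD (black bars, n = 4) for 10 genes of the hnRNP, SF3, Sm and snRNP, and PRPF classes; every y axis starts at 0. Hnrnpd is low in both co-cultures, Sf3b1 and Prpf6 are highest in Neu, and Hnrnpa3 holds 1 high library in CTR (30.5 FPKM) and 1 in Neu (26.3 FPKM).

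The SF3 genes, for the part of U2 that grips the branch site, fell together in Neu with 1 exception. Of 9, 8 were called lower and 1 higher in Neu; the median was -0.34 and the summed FPKM went from 299 ± 4.34 to 240 ± 5.39. In Neu+NETS the sum was 309.9 ± 4.98, with 3 called higher and 3 lower than CTR. Each is 33.3% of the class, beside 27.0% and 29.3% of coding genes.

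The exception was Sf3b1, the subunit that clamps the branch site helix. It read 34.9, 32.9, 33.7 and 33.9 in CTR, 44.96, 46.1, 44.8 and 45.6 in Neu, and 37.3, 38.9, 39.6 and 39.7 in Neu+NETS. Neu stood highest, 1.39-fold above CTR (log2 fold change 0.48, SE 0.025, adjusted p = 4.7e-11), and Neu+NETS lay between them (log2 fold change 0.15, SE 0.025, adjusted p = 8.8e-05 against CTR). Sf3b4, which binds just upstream of the branch site, had the highest level of the class and the largest fall. Its FPKM was 73.4, 75.2, 74.8 and 76.9 in CTR, 48.9, 50.1, 49.5 and 55.7 in Neu, and 82.3, 80.1, 82.4 and 85.02 in Neu+NETS. Neu was 1.42-fold lower than CTR (log2 fold change -0.50, SE 0.034, adjusted p = 1.5e-09). The call of Sf3b4 as higher in Neu+NETS (log2 fold change 0.09, SE 0.034, adjusted p = 0.049) was lost in 9 of 22 alternatives, each leaving out 1 library: any of CTR or Neu+NETS but Neu+NETS 2, and Neu 2 or Neu 3, with values of 0.08 to 0.10. The SF3A subunit genes Sf3a1 and Sf3a2 were called lower than CTR in both co-cultures. Sf3a1 was at 25.98 ± 1.12 FPKM, 19.98 ± 0.640 FPKM and 23.3 ± 0.884 FPKM in CTR, Neu and Neu+NETS (log2 fold change -0.32, SE 0.033, adjusted p = 2.6e-07 and log2 fold change -0.21, SE 0.033, adjusted p = 6.5e-05 against CTR). Sf3a2 read 18.9, 25.6, 20.7 and 21.6 in CTR, 15.3, 15.1, 16.1 and 16.2 in Neu, and 18.5, 20.6, 18.5 and 18.5 in Neu+NETS, and 3 of its Neu+NETS libraries lay just under the lowest CTR library (log2 fold change -0.24, SE 0.072, adjusted p = 0.0115). That call was lost in limma, at -0.17 to -0.18, and without CTR 2 the value was -0.15, still called. The third SF3A gene, Sf3a3, was lower in Neu (log2 fold change -0.40, SE 0.031, adjusted p = 7.1e-09) and not called in Neu+NETS (log2 fold change -0.05, SE 0.031, adjusted p = 0.188).

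**Figure D4:**
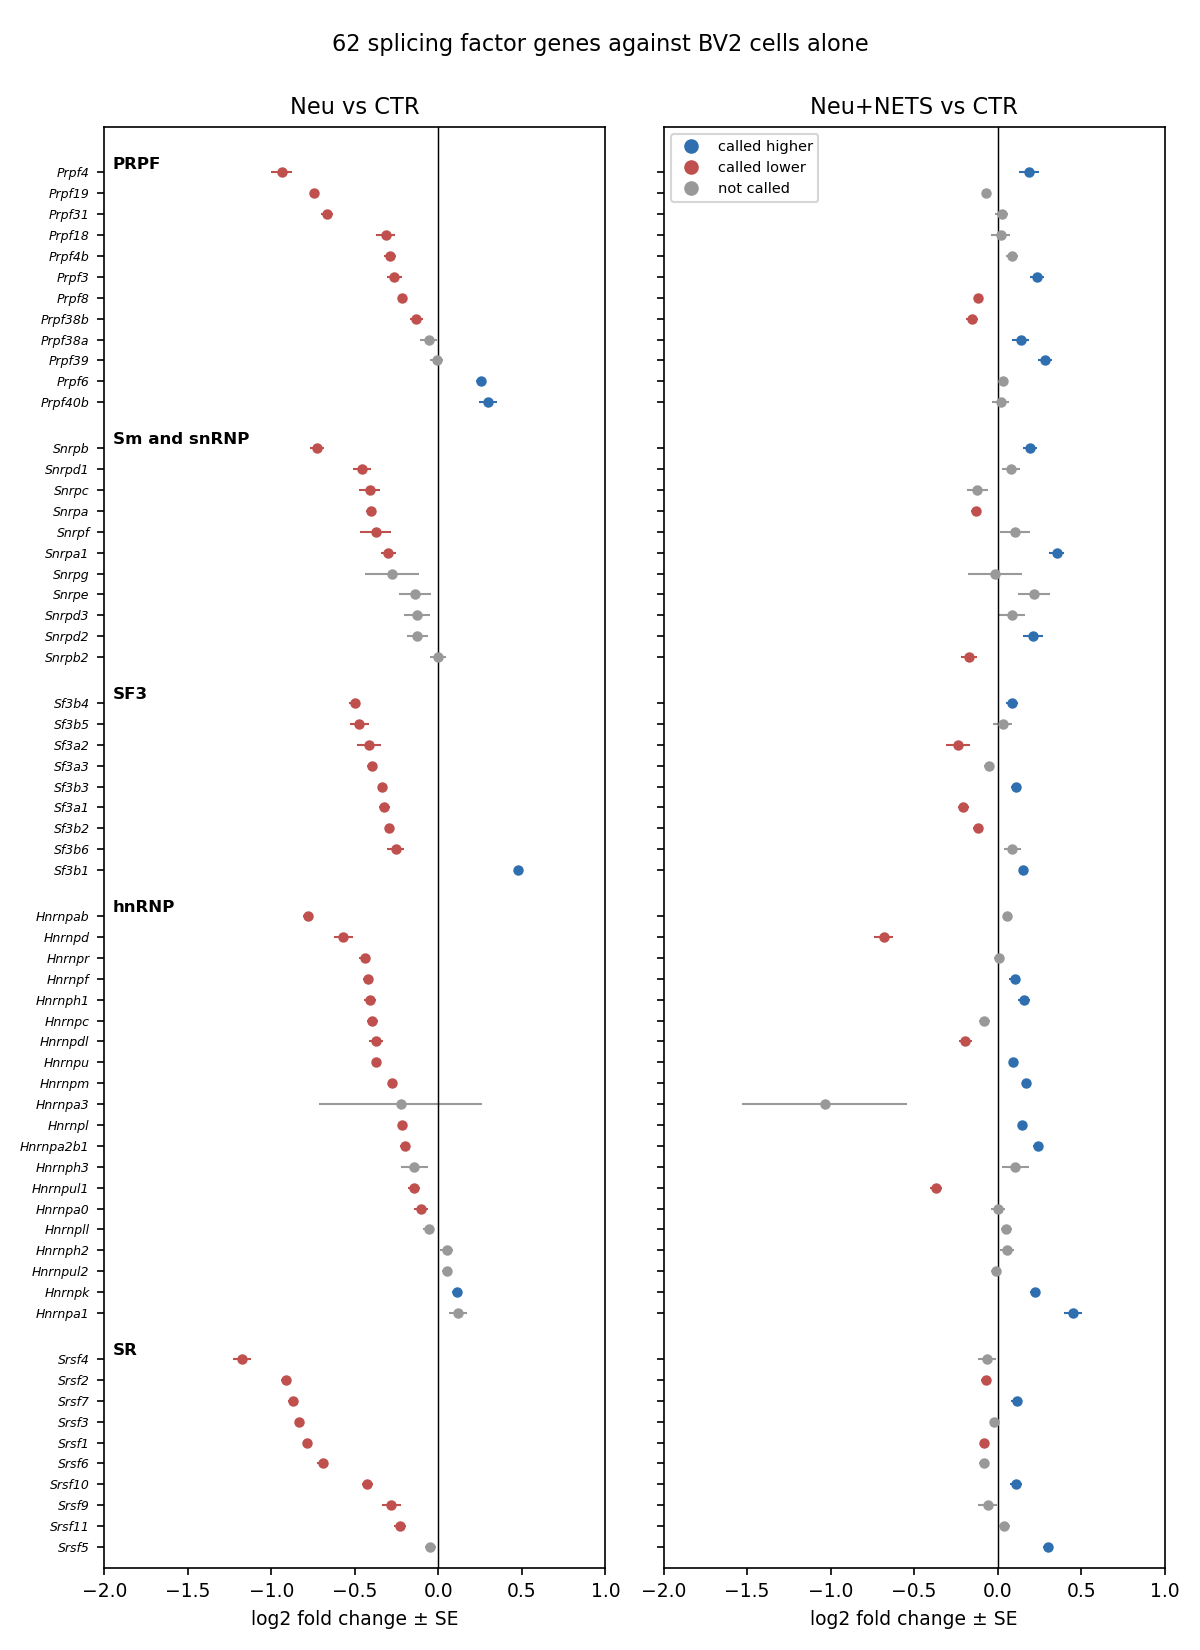
Log2 fold change with its SE (horizontal bars) of 62 of the 63 tested members in Neu and in Neu+NETS against CTR, by class and ordered by the change in Neu; blue and red mark genes called higher and lower, grey those not called. Neu values reach from -1.17 for Srsf4 to 0.48 for Sf3b1, and in Neu+NETS 21 of those shown are blue and 12 red.

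Because members of all classes fell in Neu, their promoters were read for shared letters. RefSeq gives windows of 300 bases (250 before and 50 after a start, build GRCm38.p6) for 56 of the 64 members, 76 windows in all. The ETS core CCGGAAG, on either strand, occurred in 25 of the 76 windows (32.9%), against 8.86% of all 32851 windows. By gene it was found in 6 of 7 SF3 genes, 4 of 10 SR genes, 4 of 11 PRPF genes, 4 of 10 Sm and snRNP genes and 2 of 18 hnRNP genes. That made 20 of all 56 matched members, and 15 of the 39 matched members called lower in Neu. The E-box CACGTG was in 14.5% of member windows and 7.15% of all, and in 0 of 10 SR genes. The hypoxia core ACGTG, which every CACGTG also contains, was in 39.5% and 19.6%. Promoters of widely used genes are rich in CG, which was not matched here, and letters in a window do not show binding. Shown here are the SR gene Srsf7 and the SF3 gene Sf3b3, both lower in Neu, and Sf3b1, higher in Neu and the 1 SF3 gene of 7 without the core. Other members differ from these examples. Prpf6, higher in Neu, holds the core, whereas Srsf1, Srsf2, Srsf3 and Prpf4, all lower in Neu, do not. Each is written 5′ to 3′ along the gene, with the core or its reverse complement in capitals. The windows are chr17:80207256-80207555 on the minus strand for Srsf7, chr8:110846754-110847053 on the minus strand for Sf3b3, and chr1:55027429-55027728 on the minus strand for Sf3b1.
Srsf7: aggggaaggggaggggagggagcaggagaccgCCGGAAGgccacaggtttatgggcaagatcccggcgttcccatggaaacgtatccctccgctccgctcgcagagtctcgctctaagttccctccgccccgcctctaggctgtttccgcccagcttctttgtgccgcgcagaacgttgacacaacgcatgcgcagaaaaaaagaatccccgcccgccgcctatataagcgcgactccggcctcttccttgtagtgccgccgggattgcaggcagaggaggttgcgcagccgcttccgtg
Sf3b3: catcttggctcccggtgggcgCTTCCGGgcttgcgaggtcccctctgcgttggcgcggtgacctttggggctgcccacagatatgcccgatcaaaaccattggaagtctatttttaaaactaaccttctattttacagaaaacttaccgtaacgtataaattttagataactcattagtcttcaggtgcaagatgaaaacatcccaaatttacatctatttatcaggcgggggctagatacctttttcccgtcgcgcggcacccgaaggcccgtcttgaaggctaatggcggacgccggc
Sf3b1: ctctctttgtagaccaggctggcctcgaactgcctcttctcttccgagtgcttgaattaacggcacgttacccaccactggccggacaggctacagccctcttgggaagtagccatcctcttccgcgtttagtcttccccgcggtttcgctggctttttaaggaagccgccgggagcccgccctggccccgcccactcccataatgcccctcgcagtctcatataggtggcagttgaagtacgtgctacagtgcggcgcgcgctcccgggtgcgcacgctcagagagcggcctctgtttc

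The Sm and snRNP genes fell less evenly. Of 11 tested, 6 were called lower and 0 higher in Neu, with a median of -0.30, and the summed FPKM went from 362 ± 13.8 to 262 ± 6.91. In Neu+NETS the sum was 408 ± 14.5, with 3 genes (27.3%) called higher and 2 (18.2%) lower than CTR. The share called higher is near the 27.0% of coding genes.

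Within the Sm ring, Snrpb, which encodes the SmB and SmB' proteins, changed most. It read 133, 138, 129 and 134 in CTR, 73.6, 72.7, 78.6 and 86.5 in Neu, and 162, 157, 155 and 158 in Neu+NETS. The groups did not overlap, with Neu lowest (log2 fold change -0.72, SE 0.042, adjusted p = 2.0e-10) and Neu+NETS highest (log2 fold change 0.19, SE 0.042, adjusted p = 0.00111 against CTR). Snrpd1 (SmD1) was at 25.2 ± 0.423 FPKM, 17.6 ± 1.21 FPKM and 27.5 ± 1.43 FPKM, lower in Neu (log2 fold change -0.46, SE 0.055, adjusted p = 1.8e-06) and not called in Neu+NETS (log2 fold change 0.08, SE 0.055, adjusted p = 0.264). Limma with a filter did call it higher there, at 0.12 to 0.13, and without 1 library the value ranged from 0.04 to 0.11. Snrpf (SmF) read 37.5, 43.3, 35.6 and 36.7 in CTR, 31.3, 27.6, 29.7 and 24.9 in Neu, and 45.8, 40.6, 46.7 and 37.3 in Neu+NETS, with Neu below the other groups (log2 fold change -0.38, SE 0.091, adjusted p = 0.00201). The other 4 ring genes, Snrpd2, Snrpd3, Snrpe and Snrpg, were not called in Neu, at log2 fold changes from -0.13 to -0.28 and SEs up to 0.16. Snrpn, the imprinted SmN gene of neurons, was listed at 0 in 11 libraries and at 0.0129 FPKM in Neu 2, and was not tested.

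The proteins particular to U1 and U2 differed among themselves. Snrpa1, a U2 protein, read 18.2, 18.7, 18.7 and 18.7 in CTR, 14.2, 14.4, 14.6 and 14.8 in Neu, and 24.7, 24.2, 26.4 and 22.7 in Neu+NETS. It was lower in Neu (log2 fold change -0.30, SE 0.044, adjusted p = 1.7e-05) and higher in Neu+NETS (log2 fold change 0.35, SE 0.044, adjusted p = 4.0e-06), with no overlap between any groups. Its partner on the same U2 stem loop, Snrpb2, was at 24.4 ± 1.03 FPKM, 23.4 ± 0.822 FPKM and 22.4 ± 1.27 FPKM, with no difference called in Neu (log2 fold change 0.00, SE 0.047, adjusted p = 0.998) and a lower level called in Neu+NETS (log2 fold change -0.17, SE 0.047, adjusted p = 0.00596), where the ranges overlapped. The latter call was lost with library totals and in unfiltered limma, both at -0.12. The U1 genes Snrpa and Snrpc were both called lower in Neu, each with a log2 fold change near -0.4: Snrpa by log2 fold change -0.40, SE 0.032, adjusted p = 1.2e-08 and Snrpc by log2 fold change -0.41, SE 0.063, adjusted p = 2.7e-05.

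The PRPF genes cover the tri-snRNP, the activating complex and U1 partners. In Neu 9 of 13 were called lower and 2 higher, with a median of -0.22 and a summed FPKM of 239 ± 4.26 against 294 ± 1.59 in CTR. In Neu+NETS the sum was 305 ± 4.004, with 5 (38.5%) called higher and 2 (15.4%) lower than CTR. Prpf4, a U4/U6 protein, read 7.61, 7.43, 6.80 and 7.03 in CTR, 3.66, 3.58, 3.62 and 3.61 in Neu, and 7.86, 9.51, 8.80 and 7.87 in Neu+NETS. It was 1.92-fold lower in Neu than in CTR (log2 fold change -0.94, SE 0.063, adjusted p = 1.2e-09) and 2.19-fold higher in Neu+NETS than in Neu (log2 fold change 1.13, SE 0.063, adjusted p = 6.0e-11), the largest difference between the co-cultures of any member. Prpf19, the ubiquitin ligase that activates the spliceosome, read 40.98, 41.4, 42.8 and 42.3 in CTR, 23.4, 23.96, 23.3 and 25.7 in Neu, and 39.8, 42.1, 41.1 and 42.5 in Neu+NETS. Neu was 1.67-fold lower than CTR (log2 fold change -0.74, SE 0.029, adjusted p = 1.3e-12), and Neu+NETS overlapped CTR (log2 fold change -0.07, SE 0.029, adjusted p = 0.0701); without Neu 4 it was called lower, at -0.07. Prpf31, a U4/U6 protein mutated in retinitis pigmentosa, went from 24.3 ± 1.05 to 14.7 ± 0.45 FPKM in Neu (log2 fold change -0.67, SE 0.037, adjusted p = 9.9e-11).

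Prpf8 forms the scaffold of the catalytic core and had the highest level of the class. It was at 94.9 ± 3.06 FPKM, 78.5 ± 2.68 FPKM and 90.6 ± 2.23 FPKM (log2 fold change -0.22, SE 0.026, adjusted p = 1.7e-06 and log2 fold change -0.12, SE 0.026, adjusted p = 0.00144 against CTR), and its call in Neu+NETS was lost with library totals, at -0.06, and in limma, at -0.07. Prpf6, which bridges U5 with U4/U6, read 31.2, 31.7, 31.1 and 30.2 in CTR, 35.5, 34.8, 35.8 and 36.4 in Neu, and 32.97, 33.2, 33.7 and 31.6 in Neu+NETS. It was highest in Neu (log2 fold change 0.25, SE 0.031, adjusted p = 2.1e-06) and not called in Neu+NETS against CTR (log2 fold change 0.03, SE 0.031, adjusted p = 0.427), where library totals and limma did call it higher, at 0.09 and 0.08. Prpf40b, a U1-associated protein, also rose in Neu (log2 fold change 0.30, SE 0.052, adjusted p = 1.2e-04), from 8.23 ± 0.308 FPKM to 9.72 ± 0.290 FPKM. Prpf39, also a U1 partner, was not called in Neu (log2 fold change -0.01, SE 0.040, adjusted p = 0.85) and rose in Neu+NETS (log2 fold change 0.28, SE 0.040, adjusted p = 1.5e-05), with FPKM of 5.38, 5.01, 5.34 and 5.48 in CTR, 4.86, 5.27, 4.81 and 5.32 in Neu, and 6.51, 6.52, 6.68 and 7.001 in Neu+NETS. The kinase gene Prpf4b was lower in Neu (log2 fold change -0.29, SE 0.036, adjusted p = 2.6e-06) and not called in Neu+NETS (log2 fold change 0.09, SE 0.036, adjusted p = 0.0541), but 13 of the 22 alternatives called it higher there. These were library totals at 0.14, limma at 0.13 to 0.14, median-of-ratios factors and DESeq2 at 0.11, counts divided by 4, 2 groups only and a replicate block at 0.09, and leaving out CTR 1, Neu 1, Neu 4 or Neu+NETS 2, at 0.09 to 0.11.

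Splicing genes outside the naming rule were read from 9 lists of 168 genes, of which 166 were tested. In Neu 107 of them (64.5%) were called lower and 20 (12.05%) higher, beside 27.9% and 26.1% of all genes, with a median of -0.24. In Neu+NETS 67 (40.4%) were higher and 25 (15.1%) lower than CTR, beside 21.6% and 23.7% of all genes, with a median of 0.07. Against Neu 115 (69.3%) were higher and 26 (15.7%) lower, beside 29.4% and 33.1%. The same shares of all genes stand beside the counts of each list below. The proteins that load the Sm ring onto snRNA were the lowest list in Neu: 15 of 17 were called lower, with a median of -0.51, and the 1 called higher was Snupn, the snRNA import adaptor, at 0.58, named after its value was seen. In Neu+NETS 11 of these 17 were higher than CTR and 0 lower. Gemin4, a subunit of the SMN complex that does the loading, read 26.4, 26.1, 26.3 and 24.7 in CTR, 7.88, 8.02, 8.09 and 8.48 in Neu, and 29.1, 27.7, 27.5 and 25.8 in Neu+NETS. Neu was 3.07-fold lower than CTR (log2 fold change -1.62, SE 0.043, adjusted p = 1.1e-14), with no overlap. Gemin5, which recognises the snRNA, was at 26.8 ± 0.792 FPKM, 14.4 ± 0.752 FPKM and 32.4 ± 0.743 FPKM (log2 fold change -0.84, SE 0.033, adjusted p = 1.5e-12 in Neu).

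The exon junction, cap binding and export list had 14 of 15 genes lower and 0 higher in Neu, with a median of -0.38. Its export adaptor Alyref was at 26.5 ± 1.07 FPKM in CTR and 11.9 ± 0.434 FPKM in Neu (log2 fold change -1.09, SE 0.036, adjusted p = 1.5e-13), and the cap binding gene Ncbp1 at 31.4 ± 0.750 FPKM and 18.3 ± 0.807 FPKM (log2 fold change -0.72, SE 0.032, adjusted p = 6.7e-12). Of the LSm ring genes, most of which serve U6 or mRNA decay, 8 of 10 were lower in Neu, led by Lsm2 (log2 fold change -1.09, SE 0.061, adjusted p = 1.1e-10). Lsm4 was lower than CTR in both co-cultures, at 73.8 ± 4.57 FPKM, 57.7 ± 0.973 FPKM and 53.2 ± 1.93 FPKM. In the list of U2 recruitment 11 of 15 were lower and 1 higher, and in that of further snRNP proteins 13 of 22 were lower and 0 higher. There, Snu13 was at 56.8 ± 1.96 FPKM in CTR and 27.8 ± 0.616 FPKM in Neu (log2 fold change -0.98, SE 0.032, adjusted p = 1.7e-13), and Usp39 at 24.4 ± 1.02 FPKM and 11.6 ± 0.490 FPKM (log2 fold change -1.02, SE 0.044, adjusted p = 4.4e-12).

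Among lists with a median under 0, the catalytic step list fell least, with a median of -0.09 in Neu. There 10 of 23 were lower, or 43.5% beside 35.1% of coding genes, and 4 were higher. Its member Ppil1 was nevertheless among the steepest falls (log2 fold change -1.18, SE 0.059, adjusted p = 2.6e-11). Among SR-related proteins 10 of 17 were lower and 2 higher. The splicing activator Tra2b fell in Neu (log2 fold change -0.76, SE 0.036, adjusted p = 1.6e-11) and Rsrc2 rose (log2 fold change 0.67, SE 0.032, adjusted p = 1.7e-11). Of 38 tested RNA-binding regulators, 23 were lower and 8 higher in Neu, and 10 lower and 18 higher in Neu+NETS, both against CTR. The 10 lower are 26.3% of the list, near the 23.7% of all genes. The paraspeckle gene Pspc1 was lowest in Neu+NETS, at 4.45 ± 0.136 FPKM against 9.85 ± 0.367 FPKM in CTR (log2 fold change -1.20, SE 0.054, adjusted p = 1.4e-11), and Fubp1 rose there from 13.2 ± 0.306 FPKM to 20.5 ± 0.330 FPKM (log2 fold change 0.59, SE 0.026, adjusted p = 1.0e-11).

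**Figure D5:**
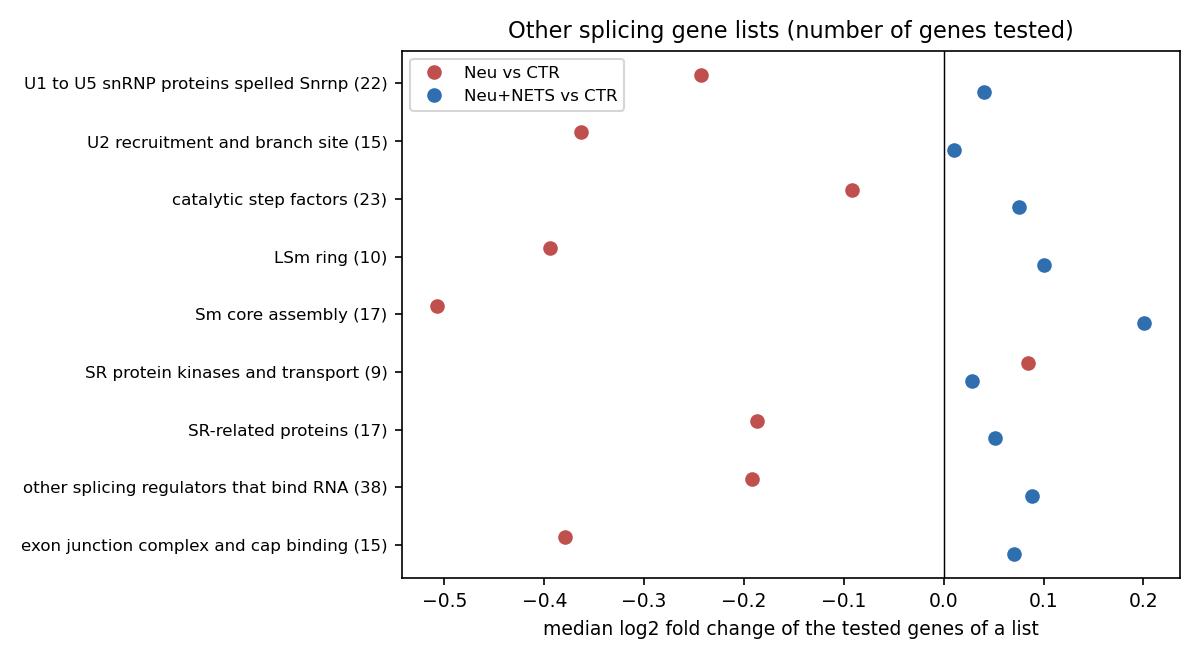
Median log2 fold change of the tested genes in each of the 9 further splicing lists, in Neu (red) and Neu+NETS (blue) against CTR; the number tested is in brackets. All lists but SR protein kinases and transport have a median under 0 in Neu, the lowest being Sm core assembly at -0.51, and all 9 have a median over 0 in Neu+NETS.

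Some levels are uncertain. Hnrnpa3 read 7.78, 30.5, 6.86 and 10.1 in CTR, 9.02, 4.15, 6.49 and 26.3 in Neu, and 8.14, 6.41, 6.84 and 6.59 in Neu+NETS, with 1 library of CTR and 1 of Neu far above the rest of their group, and no difference was called (log2 fold change -0.23, SE 0.49, adjusted p = 0.73 in Neu). Several members, among them Hnrnpa1, Hnrnpa3 and Srsf3, have near-identical processed copies in the genome, between which counting can split reads. A transcript named Snrpert, annotated as not coding, was at 20.8 ± 5.81 FPKM in CTR, beside 31.8 ± 4.93 FPKM for Snrpe itself. In estimated counts it held 267 to 486 units per library, far under the 2181 to 4094 of Snrpe. How reads were divided between both was not tested, so the value of Snrpe is uncertain. Srsf3-ps stayed under 2.45 FPKM and both Hnrnpa1l2 pseudogenes under 0.563. Of the 45 members called lower in Neu, 44 kept call and sign in all 22 alternatives, as did 3 of the 4 called higher. In Neu+NETS against CTR, 18 of 22 higher and 5 of 12 lower did so, and those 5 were Hnrnpd, Hnrnpdl, Hnrnpul1, Sf3a1 and Prpf38b.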

How the data were processed

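Polyadenylated RNA of 12 libraries was read from 1 table of 27487 genes. Build GRCm39 and the tools StringTie 1.3.4d, HISAT2 2.0.4 and edgeR stand, without roles, in the submitters' processing notes; no source used here gives the strand setting or the annotation release. Estimated counts were deposited as unscaled whole numbers, per the file headers. Of deposited values from 2 to 41, 33.0% are multiples of 4 (25% if even), so a fragment appears to be about 4 units and totals overstate depth. The authors' FPKM, named so per the file headers, give the levels.

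Counts were used as deposited: filterByExpr kept 16387 genes, TMM factors were 0.97 to 1.03, and all 12 libraries entered 1 two-sided quasi-likelihood fit (edgeR 4.0.16, R 4.3.3; biological coefficient of variation 12.5%). SE is the log2 fold change over the square root of F. Scripts were tested on simulated data. All 18 pairs of same-group libraries differed beyond sampling noise (chi-square per degree of freedom 1.85 to 4.46, on counts divided by 4). Alternatives used limma 3.58.1 on log2(FPKM + 1) or log2(FPKM + 0.1), DESeq2 1.42.0, other scalings and filters, a replicate block, and each library left out.

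Groups come from the labels. Members, lists and the naming rule were chosen with earlier results of these data known. Named are the 5 largest called changes per direction and comparison at 5 FPKM or more in the higher group, the 2 highest members per class, 15 set members and, per list and comparison, up to 2 called genes of smallest adjusted p; further members are given to complete their class. The values of 1 member are not reported here.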

Additional observations from a re-analysis of the deposited data

Results flagged for a closer look

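Among 108 groups of 4 values of the named members and of the class sums, 6 held a library far from the other 3, and chance gives about 1 in 20. In Neu, Srsf2 had a highest value of 65.7 FPKM, with the others at 61.0 to 61.7, and Sf3a1 one of 20.9, with the others at 19.6 to 19.7. In CTR, Hnrnpd had a highest value of 15.5 FPKM against 13.3 to 13.6, and Snrpa1 a lowest value of 18.2 against 18.6 to 18.7. In Neu+NETS, Sf3a2 had a highest value of 20.6 FPKM against 18.5 in the other 3 libraries, and Hnrnpab one of 388 against 369 to 372.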

How the results depend on the processing

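Under all 22 alternatives the member median stayed negative in Neu against CTR and positive in the other comparisons. With limma on log2(FPKM + 1), with or without a filter, the Neu against CTR medians were -0.328 for all members, -0.781 for SR, -0.282 for hnRNP, -0.381 for SF3 and -0.271 for PRPF genes. With a pseudocount of 0.1 they were -0.348, -0.795, -0.301, -0.393 and -0.274, and -0.355 for Sm and snRNP genes. SR and SF3 medians were -0.756 and -0.354 with library totals, and -0.722 and -0.320 with counts divided by 4. For Neu+NETS against CTR, in the order members, SR, hnRNP, SF3 and PRPF, the medians were 0.107, 0.017, 0.113, 0.086 and 0.089 with library totals. They were 0.092, 0.010, 0.104, 0.074 and 0.079 with limma at a pseudocount of 1, and 0.099, 0.010, 0.105, 0.078 and 0.082 at 0.1. With median-of-ratios factors or DESeq2, members, SR and PRPF were at 0.074, -0.016 and 0.057. The SR median thus changed sign with the scaling, and members called lower went from 12 to 6 with library totals or unfiltered limma and to 7 with filtered limma. For Neu+NETS against Neu, in the same order, library totals gave 0.413, 0.730, 0.354, 0.413 and 0.405. Limma gave 0.435, 0.749, 0.360, 0.417 and 0.389 at a pseudocount of 1, and 0.442, 0.762, 0.386, 0.442 and 0.432 at 0.1, with 0.441 for Sm and snRNP genes. With 2 groups only, members, SR, hnRNP and PRPF were at 0.373, 0.690, 0.314 and 0.365. Limma on FPKM also moved the median of all genes it tested. At a pseudocount of 0.1 it was -0.105 in Neu against CTR, 0.059 in Neu+NETS against CTR and 0.131 in Neu+NETS against Neu. The cause of these shifts was not tested.

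Leaving out 1 library at a time, members called higher in Neu were 4 to 7, with 7 reached without Neu 4, and members called lower 44 to 45. In Neu+NETS against CTR they were 19 to 23 and 10 to 16, and against Neu 49 to 52 and 5 to 7. In Neu against CTR the medians ranged from -0.324 to -0.293 for members, -0.252 to -0.199 for hnRNP and -0.238 to -0.202 for PRPF genes. In Neu+NETS against CTR they ranged from -0.042 to -0.011 for SR and 0.032 to 0.061 for PRPF genes. Against Neu they ranged from 0.248 to 0.314 for hnRNP, 0.308 to 0.359 for SF3 and 0.305 to 0.359 for PRPF genes. Among values near 0, Prpf39 in Neu turned to 0.008 with counts divided by 4 and ranged from -0.034 to 0.009 without 1 library. Snrpb2 in Neu turned to 0.009 with median-of-ratios factors or DESeq2, 0.002 with no filter, 0.018 with counts divided by 4 and ranged from -0.021 to 0.022 without 1 library. Srsf3 in Neu+NETS against CTR turned to 0.004 with median-of-ratios factors or DESeq2, 0.037 with library totals and 0.029 or 0.030 with limma. Prpf40b there ranged from -0.038, without Neu+NETS 4, to 0.052. In Neu+NETS against CTR the call of Prpf4 as higher was lost without CTR 3 (0.163), Neu+NETS 2 (0.136) or Neu+NETS 3 (0.171), that of Srsf1 as lower was lost without Neu+NETS 2 (-0.066), with library totals, median-of-ratios factors and limma (-0.057 to -0.025), and Hnrnpab was called higher without CTR 2 (0.080) and with library totals, median-of-ratios factors, DESeq2 and limma (0.081 to 0.113). Against Neu the call of Sf3a2 as higher was lost without CTR 4, any 1 Neu library or any 1 of Neu+NETS 1, 2 and 3, at 0.136 to 0.192. Of 2046 gene values recomputed, 1931 kept their direction and their side of the threshold.

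Libraries with the same number deviated together in none of the comparisons beyond a correlation of 0.104 (lowest -0.144, 12 pairs). Libraries with other numbers ranged from -0.166 to 0.189, so no pairing by number was visible. Such correlations cannot show whether libraries with the same number were prepared together. A replicate block gave 5 higher and 45 lower members in Neu against CTR, 22 and 13 in Neu+NETS against CTR, and 51 and 6 in Neu+NETS against Neu.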
